A study of Mus musculus with 6 samples.

Results

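The genes described here are 10 negative regulators of the ERK mitogen-activated protein kinase pathway and its stress-activated relatives: the MAP kinase phosphatases Dusp1, Dusp4, Dusp5, Dusp6, Dusp10 and Dusp16, the Sprouty genes Spry2 and Spry4, and the Spred genes Spred1 and Spred2. They were taken by gene symbol from a list drawn up with earlier results of these data known, and all 10 were found among the 24594 Entrez gene IDs of the count table and passed the expression filter. RNA-seq counts came from epithelial organoids, small cultured epithelial structures, of adult mouse proximal small intestine. The genotype was TetON-hYAP/H2B-mCherry in all libraries, a strain in which doxycycline switches on a constitutively active human YAP and a red histone tag, so the control libraries carried the transgene too. The 3 doxycycline libraries had 1 µg/ml of the drug for 48 h from passaging, and the 3 control libraries had none. The stated medium held EGF (50 ng/ml), Noggin (100 ng/ml) and R-spondin1 (500 ng/ml) for both groups; the protocol adds a Wnt-activating inhibitor and nicotinamide for some cultures without saying which. No library had doxycycline without the transgene, so drug and transgene cannot be told apart, and the labels do not name the cells that drive the transgene. The protocol gives adult crypts as taken from a single individual per sample, but does not say whether cultures of the 2 groups shared animals; if cultures were not separate, p-values measure only the spread between these libraries.

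ERK lies downstream of growth factor receptors such as the EGF receptor, through Ras, Raf and the MEK kinases. In the intestinal epithelium EGF supports the growth of crypt cells, and ERK activity induces several of its own inhibitors. MAP kinase phosphatases remove phosphate from active ERK, JNK or p38 kinases, each with its own preference and place in the cell. Sprouty proteins act at the membrane between receptor and Raf, and Spred proteins hold back Ras by bringing in neurofibromin, the product of Nf1.

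With doxycycline, 4 of the 6 MAP kinase phosphatases rose, whereas no Sprouty or Spred gene passed the test. Dusp1 was 11.9-fold, Dusp10 6.92-fold, Dusp6 6.87-fold and Dusp5 4.47-fold higher on the fitted scale. Dusp4, Dusp16, Spry2, Spry4, Spred1 and Spred2 did not pass. Counted over the 10 genes, 4 were higher and 0 lower (edgeR adjusted p under 0.05), against 21.7% higher and 23.6% lower of all 12909 genes tested, 45.3% in either direction. At an unadjusted p under 0.05 the counts were again 4 and 0. The share of all genes at that threshold was not computed, but it is at least the 45.3% that passed after adjustment. DESeq2 and limma-voom each gave 4 and 0, beside 52.1% and 45.8% of all genes called in either direction. The share of these genes called in the main fit, 40%, lay near the 45.3% of all genes. The 6 of 10 genes whose groups did not overlap likewise lay near the 61.3% of all genes. The share of all genes called moved with single libraries. It was 69.9% without control replicate 3, where 7 of the 10 genes were called. It was 29.2% and 29.1% without doxycycline replicates 2 and 3, where 4 were. The median log2 fold change of the 10 genes was 0.59, against -0.08 over all genes. It was 0.29 against -0.02 without control replicate 3, and 0.15 against -0.52 with total counts as the scaling.

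Total counts per library were 8533452 to 16803062, and the 10 genes had 42 to 5012 counts each in a library. Control replicate 3 stood apart: its root-mean-square log2 distance to the other control libraries was 0.965, against 0.637 and 0.644 for control replicates 2 and 1 and 0.390 to 0.424 among doxycycline libraries. Its CPM (counts scaled to a common library size with TMM factors) were under 0.6 times the mean of the other control libraries for 6 of the 10 genes, from 0.196 times for Dusp4 to 0.542 times for Spred2, while Dusp5 and Dusp10 were at 0.980 and 0.993 times. Over all tested genes the median of that comparison was -0.01 on the log2 scale, with quartiles of -0.67 and 0.63. All 7 epithelial markers had at least 139.4 CPM in every library, with Epcam at 401.9 to 907.9 and Vil1 at 148.2 to 527.8 CPM. Mesenchymal markers summed to at most 0.805 CPM in any library (Col1a1, Dcn and Lum at 0 counts), and endothelial ones to at most 0.924 CPM (Kdr at 0). The 5 immune markers summed to 20.4 to 42.8 CPM in control and 27.1 to 27.3 CPM in doxycycline libraries, mostly from Csf1r, with the pan-leukocyte gene Ptprc at no more than 0.141 CPM. Within the epithelium, the 4 crypt base stem cell markers (Lgr5, Olfm4, Ascl2, Smoc2) summed to 3695 to 5016 CPM in control and 23.8 to 24.2 CPM in doxycycline libraries and 4 Paneth cell markers to 2215 to 4414 and 33.7 to 37.95 CPM. The 4 enterocyte markers summed to 1169 to 1748 and 9831 to 10500 CPM. The part of these shifts in the values below was not tested, and in bulk libraries fewer cells of a type and less RNA per cell cannot be told apart.

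Dusp1 encodes a nuclear phosphatase that is induced by mitogens and stress and acts on p38, JNK and ERK. It lies on chromosome 17 (26505591 to 26508472, minus strand, GRCm38.p6), and shares 11 exon bases with Ergic1 on the opposite strand. Its levels were 11.9, 11.5 and 7.15 CPM in control replicates 1 to 3 and 103.3, 143.1 and 118.7 CPM in doxycycline replicates 1 to 3. Every doxycycline library was above every control library. The log2 fold change was 3.57 (SE 0.260, n = 3 per group, edgeR adjusted p = 1.46e-04), with a 95% interval of 2.96 to 4.19.

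Dusp5, a nuclear phosphatase selective for ERK (chromosome 19, 53529145 to 53541809, plus strand), was the most even of the genes within each group. Its control levels were 77.7, 80.2 and 77.4 CPM, and its doxycycline levels were 338.2, 358.6 and 354.2 CPM. Control replicate 3, low for most of the other genes, was level with its group here. The log2 fold change was 2.16 (SE 0.145, 95% interval 1.82 to 2.50, edgeR adjusted p = 1.01e-04). Exons of an unnamed gene on the opposite strand overlap 547 of the 2473 exon bases of Dusp5 in GENCODE, and with the use of strand not given, reads of both genes cannot be told apart there.

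Dusp6 encodes the cytoplasmic ERK-selective phosphatase (chromosome 10, 99263231 to 99267489, plus strand), a common readout of ERK activity. Its levels were 39.7, 44.6 and 15.7 CPM in control and 206.0, 243.6 and 239.6 CPM in doxycycline libraries. The groups were far apart, with control replicate 3 lowest. The log2 fold change was 2.78 (SE 0.387, 95% interval 1.87 to 3.70, edgeR adjusted p = 0.00156), and without control replicate 3 it was 2.46.

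Dusp10, whose product prefers p38 and JNK over ERK (chromosome 1, 184034381 to 184075636, plus strand), went from 3.98, 4.54 and 4.23 CPM to 27.5, 33.1 and 27.7 CPM. Per length it was the lowest of the 6 phosphatase genes in control, and it rose in all doxycycline libraries (log2 fold change 2.79, SE 0.192, 95% interval 2.34 to 3.24, edgeR adjusted p = 1.10e-04).

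**Figure D1:**
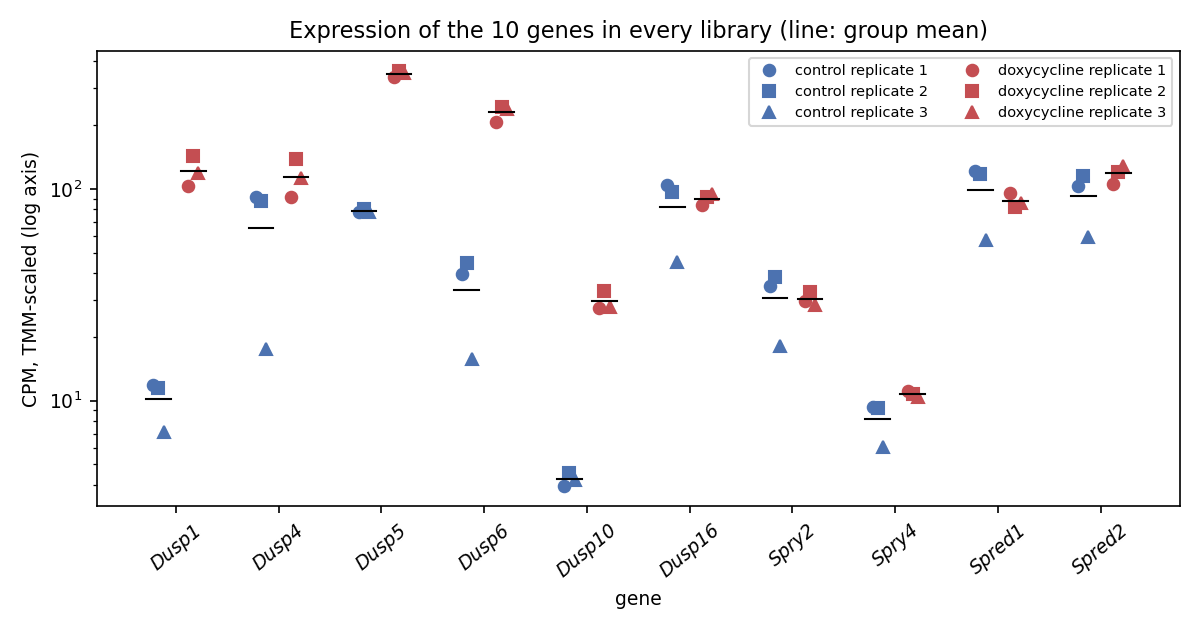
CPM on a log axis for each of the 10 genes in the 3 control (blue) and 3 doxycycline (red) libraries, with marker shapes for replicate numbers and a line at each group mean. Dusp1, Dusp5, Dusp6 and Dusp10 are separated between the groups, and control replicate 3 (blue triangles) lies below the other control libraries for Dusp4, Dusp6, Dusp16 and the Sprouty and Spred genes.

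The sequence upstream of the start is shown for the 4 genes that rose and, for comparison, Spry2, which did not pass the test. Each run is the 250 bases before the RefSeq start on the gene's strand (GRCm38.p6): Dusp1 chr17:26508473-26508722 (minus strand), Dusp5 chr19:53528895-53529144 (plus), Dusp6 chr10:99262981-99263230 (plus), Dusp10 chr1:184034131-184034380 (plus) and Spry2 chr14:105896820-105897069 (minus). Capitals mark matches on either strand to the motifs searched.
Dusp1: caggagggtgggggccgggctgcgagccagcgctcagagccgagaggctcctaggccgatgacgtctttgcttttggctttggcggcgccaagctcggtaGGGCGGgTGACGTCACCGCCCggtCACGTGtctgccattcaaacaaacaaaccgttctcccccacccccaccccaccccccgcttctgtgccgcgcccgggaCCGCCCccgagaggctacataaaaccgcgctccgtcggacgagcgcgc
Dusp5: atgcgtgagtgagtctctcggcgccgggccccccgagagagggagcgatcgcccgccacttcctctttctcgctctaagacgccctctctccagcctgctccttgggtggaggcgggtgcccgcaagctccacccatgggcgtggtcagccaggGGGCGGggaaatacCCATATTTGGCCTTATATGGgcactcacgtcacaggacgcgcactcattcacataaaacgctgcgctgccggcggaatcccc
Dusp6: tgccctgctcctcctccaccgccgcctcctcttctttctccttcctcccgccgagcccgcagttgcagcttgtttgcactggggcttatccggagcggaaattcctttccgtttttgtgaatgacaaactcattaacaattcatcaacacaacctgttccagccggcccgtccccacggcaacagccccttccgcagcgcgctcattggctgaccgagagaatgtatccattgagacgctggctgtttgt
Dusp10: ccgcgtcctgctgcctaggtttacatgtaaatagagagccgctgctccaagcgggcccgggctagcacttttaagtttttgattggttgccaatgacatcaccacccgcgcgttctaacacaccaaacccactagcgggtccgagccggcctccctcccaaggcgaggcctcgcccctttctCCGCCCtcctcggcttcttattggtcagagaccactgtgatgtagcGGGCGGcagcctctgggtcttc
Spry2: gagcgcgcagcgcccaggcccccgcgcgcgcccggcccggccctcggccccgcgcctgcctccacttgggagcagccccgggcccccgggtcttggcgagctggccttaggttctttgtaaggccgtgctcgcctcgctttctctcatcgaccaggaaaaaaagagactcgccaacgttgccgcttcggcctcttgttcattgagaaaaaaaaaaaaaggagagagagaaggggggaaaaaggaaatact

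The motifs were TEAD (GGAATG, for the DNA-binding partners of YAP), AP-1 (TGANTCA), ETS (CCGGAAG), CRE (TGACGTCA), E-box (CACGTG) and the KLF/Sp box (GGGCGG). RefSeq gave a promoter for 8 of the 10 genes, and none for Dusp4 and Spry4. The Dusp16 window (chr6:134792629-134792878, minus strand) lies inside the gene's span of 134715468 to 134807063. Its matches therefore precede an internal start and not the outermost one. None of the 8 windows held the TEAD, AP-1 or ETS letters, which 12.6%, 6.75% and 6.91% of all 32851 promoters held. The KLF/Sp box was in 6 of 8 (Dusp1, Dusp5, Dusp10, Dusp16, Spred1 and Spred2) and in 32.7% of all promoters; the box is all G and C, and the 8 windows were 56.0 to 70.8% GC with 12 to 31 CpG, against medians of 52.4% and 6 over all promoters. Dusp1 alone of the 8 held the CRE, at 143 to 136 bases before the start and directly beside a KLF/Sp box at 135 to 130, and the E-box, at 126 to 121. The CRE was in 1.55% and the E-box in 6.02% of all promoters. The CArG box, bound by serum response factor, was searched for after the sequences had been seen: Dusp5 held it at 82 to 73 and again at 72 to 63 bases before the start, side by side, and 1.47% of all promoters held it. The windows of Dusp6, which rose, and of Spry2, which did not pass, held none of the motifs. These are matches of letters within 250 bases and describe no binding.

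Dusp4 encodes a nuclear phosphatase for ERK and JNK (chromosome 8, 34807610 to 34819894, plus strand). It had 91.48, 87.52 and 17.51 CPM in control and 91.52, 138.8 and 112.0 CPM in doxycycline libraries. Doxycycline replicate 1 was level with control replicates 1 and 2, and the wide control spread came from control replicate 3. The log2 fold change was 0.80 (SE 0.556, 95% interval -0.52 to 2.11, edgeR adjusted p = 0.279). Without control replicate 3 it was smaller, 0.37, and passed the threshold (adjusted p = 0.0466).

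Dusp16, whose product acts mainly on JNK and p38 (chromosome 6, 134715468 to 134807063, minus strand), had 104.0, 96.7 and 45.2 CPM in control and 84.1, 91.2 and 94.6 CPM with doxycycline. The groups overlapped (log2 fold change 0.13, SE 0.307, 95% interval -0.59 to 0.86, edgeR adjusted p = 0.751). Its direction depended on the setting, at -0.31 with total counts as the scaling and -0.14 without control replicate 3.

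Spry2 (chromosome 14, 105891947 to 105896819, minus strand), a membrane-associated inhibitor of receptor signalling to Ras and Raf, had 34.8, 38.6 and 18.2 CPM in control and 29.4, 32.7 and 28.3 CPM with doxycycline. The doxycycline libraries lay inside the control range. The log2 fold change was -0.02 (SE 0.284, 95% interval -0.70 to 0.65, edgeR adjusted p = 0.957). Without control replicate 3 it was -0.27 and passed (adjusted p = 0.0434). Spry4, a second inhibitor of this family, had 9.36, 9.24 and 6.04 CPM in control and 11.1, 10.7 and 10.4 CPM with doxycycline. Its groups did not overlap, by a small margin, and the gene did not pass (log2 fold change 0.38, SE 0.236, 95% interval -0.17 to 0.94, edgeR adjusted p = 0.225; -0.06 with total counts). Both intervals exclude the 2.16 of Dusp5, the smallest log2 rise among the 4 phosphatases, a value picked after the calls were known. The intervals of Dusp4 (-0.52 to 2.11) and Dusp16 (-0.59 to 0.86), phosphatase genes that did not pass, exclude it too. A difference between the families was not tested.

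Spred1 (chromosome 2, 117121071 to 117182279, plus strand) had 121.7, 117.3 and 57.6 CPM in control and 95.5, 82.1 and 85.7 CPM in doxycycline libraries. Each doxycycline library lay below control replicates 1 and 2 and above control replicate 3. The log2 fold change was -0.17 (SE 0.290, 95% interval -0.86 to 0.51, edgeR adjusted p = 0.655), and without control replicate 3 it was -0.43 and passed (adjusted p = 1.60e-04). Spred2 (chromosome 11, 19924442 to 20024026, plus strand) had 103.7, 114.7 and 59.2 CPM in control and 106.0, 120.4 and 128.8 CPM with doxycycline. Its groups overlapped (log2 fold change 0.35, SE 0.261, 95% interval -0.26 to 0.97, edgeR adjusted p = 0.304; -0.09 with total counts). Nf1, the partner of the Spred proteins and named here for that reason, had 35.9 ± 5.77 and 37.2 ± 5.04 CPM (SD, n = 3; edgeR adjusted p = 0.851).

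The calls of Dusp1, Dusp5, Dusp6 and Dusp10 held under all 13 alternatives, with log2 fold changes of 3.13 to 3.71, 1.72 to 2.19, 2.34 to 3.05 and 2.35 to 2.85. Total counts as the only scaling gave the lowest value for each, since it moved the median of all genes from -0.08 to -0.52. Without control replicate 3, 5 of the 10 genes were higher and 2 lower, against 34.9% higher and 35.1% lower of all genes in that setting, and 7 of 10 called in either direction lay near the 69.9% of all genes.

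**Figure D2:**
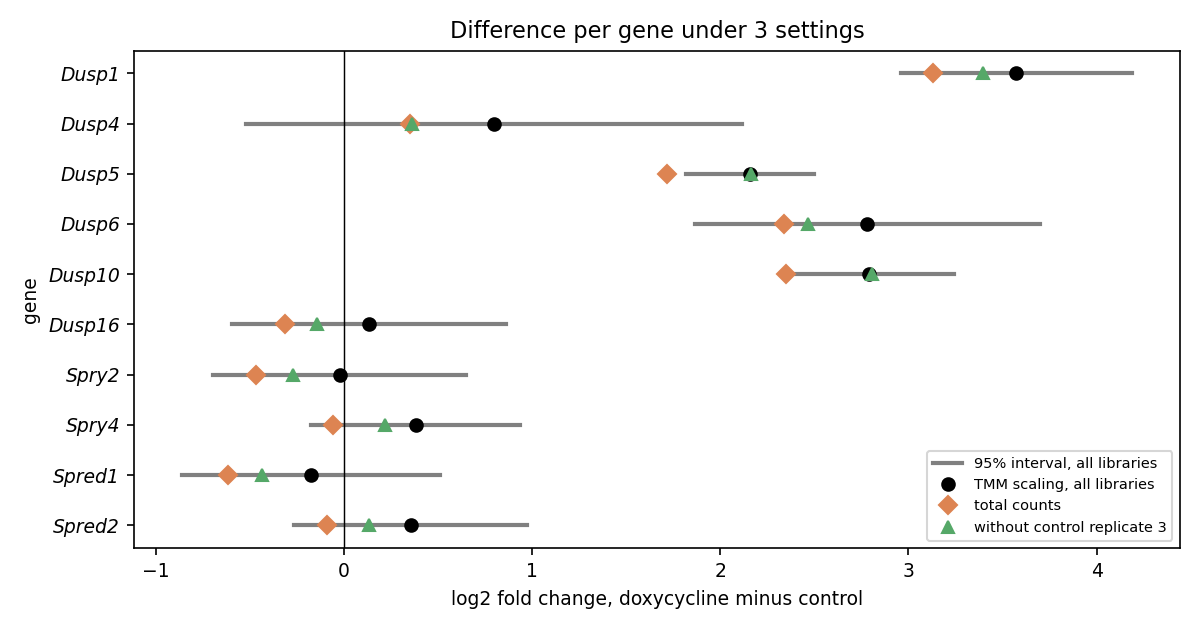
Log2 fold change, doxycycline minus control, for each gene with TMM scaling (black, with its 95% interval in grey), with total counts as the scaling (orange) and without control replicate 3 (green). Dusp1, Dusp5, Dusp6 and Dusp10 lie above 1.7 in each setting, and the other genes lie between -0.61 and 0.80.

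Levels of different genes were compared per kilobase of merged exons. In control libraries the order was Dusp5 (31.7 ± 0.620 CPM per kb), Dusp4 (23.9 ± 15.2), Spred2 (20.03 ± 6.36), Spry2 (14.6 ± 5.19), Spred1 (14.6 ± 5.28), Dusp6 (10.6 ± 4.94) and Dusp16 (10.5 ± 4.11), whose neighbours in this order all overlapped in range. Dusp1 (3.07 ± 0.791 CPM per kb) lay below all of these, and Spry4 (1.73 ± 0.396) and Dusp10 (1.40 ± 0.0930), which overlapped each other, were lowest. With doxycycline, Dusp5 (141.7 ± 4.35 CPM per kb) and then Dusp6 (73.4 ± 6.60) stood clear of the rest. Dusp4 (41.7 ± 8.65 CPM per kb) and Dusp1 (36.8 ± 6.07) overlapped each other and lay above Spred2 (25.6 ± 2.49). Spry2 (14.4 ± 1.09 CPM per kb), Spred1 (12.9 ± 1.02), Dusp16 (11.5 ± 0.683) and Dusp10 (9.68 ± 1.05) followed, each overlapping the next, and Spry4 (2.26 ± 0.0774) was lowest.

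Of the 7 remaining genes of the 3 families, 6 were tested, and 2 were higher and 1 lower, a share near the 45.3% of all genes. Dusp7, which encodes a cytoplasmic ERK phosphatase related to Dusp6, went the opposite way to it, from 22.6, 28.3 and 13.3 CPM in control to 8.19, 7.03 and 6.71 CPM (log2 fold change -1.55, SE 0.304, edgeR adjusted p = 0.00626). Dusp8, whose product acts on JNK and p38, rose from 27.8 ± 2.19 to 53.1 ± 6.68 CPM (log2 fold change 0.94, adjusted p = 0.00396; 0.49 with total counts). Dusp9, a further ERK phosphatase gene, rose from 10.3 ± 3.80 to 23.5 ± 4.90 CPM (log2 fold change 1.20, adjusted p = 0.0209). That call was lost with total counts (0.76, adjusted p = 0.0846) and on leaving out control replicate 2 (adjusted p = 0.058), the first doxycycline library (0.0736) or the second (0.0804). Spry1 had 24.96 ± 5.58 and 25.6 ± 1.32 CPM (adjusted p = 0.908) and Spred3 1.77 ± 0.759 and 2.61 ± 0.334 CPM (0.282). Spry3 had 6.50 ± 2.70 and 12.3 ± 1.07 CPM (edgeR adjusted p = 0.0674; 0.0245 with DESeq2, 0.0488 with limma-voom and 0.00470 without control replicate 3). Dusp2 had 6 counts over the control and 4 over the doxycycline libraries and was not tested. The median log2 fold change over the 6 genes tested was 0.72.

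Added over the 10 MAP kinase phosphatase genes of both lists, the per-length level was 110.6, 113.4 and 67.4 CPM per kb in control and 308.2, 363.2 and 337.8 CPM per kb in doxycycline libraries. The make-up of that sum does not depend on the library scaling. Dusp6 went from 10.5% ± 2.70 to 21.8% ± 0.736 of it, Dusp1 from 3.17% ± 0.0989 to 10.9% ± 0.921 and Dusp10 from 1.52% ± 0.474 to 2.88% ± 0.159 (SD, n = 3), with no overlap between the groups. Dusp5 made up 28.4%, 28.6% and 46.4% in control and 44.4%, 39.9% and 42.4% in doxycycline libraries, so its groups overlapped through control replicate 3. Dusp4 was 30.2% and 28.2% of the sum in control replicates 1 and 2, 9.48% in control replicate 3, and 10.8% to 13.95% with doxycycline. Dusp16 went from 10.5% ± 1.76 to 3.44% ± 0.192 and Dusp7 from 6.46% ± 0.840 to 0.654% ± 0.120, both without overlap. By preferred kinase, the group that acts mainly on JNK and p38 (Dusp8, Dusp10, Dusp16) made up 18.4% ± 1.46 in control and 9.55% ± 0.0937 with doxycycline, although Dusp8 and Dusp10 rose. The nuclear inducible genes (Dusp1, Dusp2, Dusp4, Dusp5) made up 60.3% ± 1.51 and 65.4% ± 0.319, and the cytoplasmic ERK-selective ones (Dusp6, Dusp7, Dusp9) 21.3% ± 1.78 and 25.03% ± 0.283. These shares were computed after the gene values were known and were not tested.

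**Figure D3:**
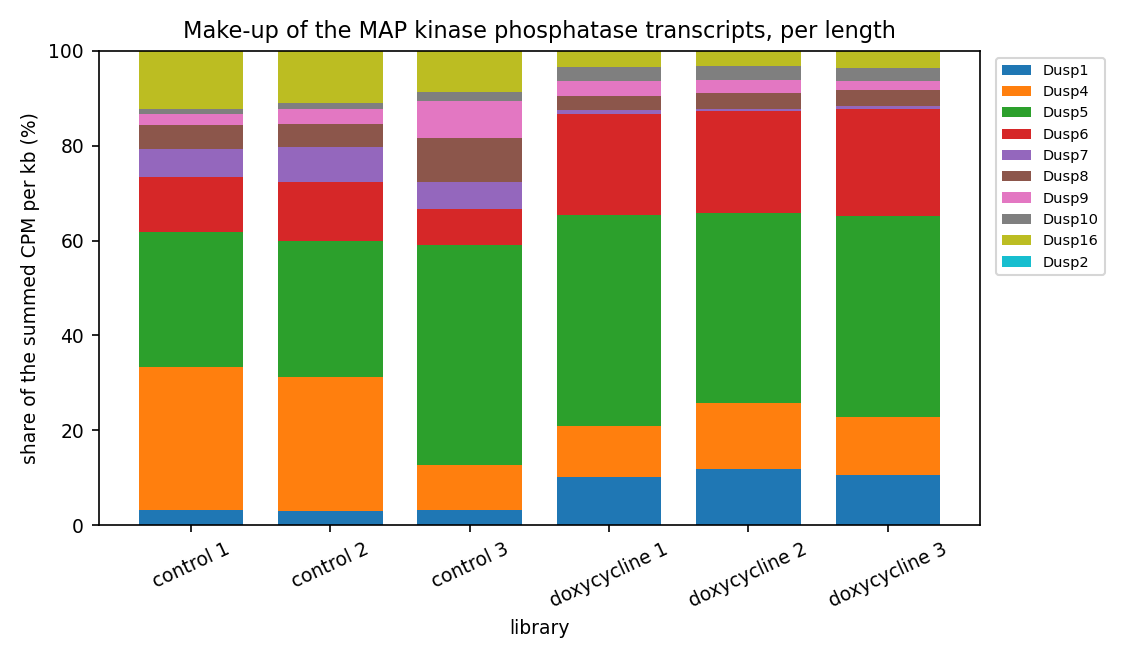
Stacked shares of 10 MAP kinase phosphatase genes in their summed CPM per kb, for each library (bars from 0 to 100%). In all doxycycline libraries Dusp6 and Dusp1 take larger shares and Dusp16 and Dusp7 smaller ones than in any control library, and control replicate 3 differs from the other control libraries in Dusp4 and Dusp5.

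Ratios of 2 genes within a library are likewise free of scaling. In 6 such pairs, compared by an exact two-sided permutation test whose smallest p with 3 against 3 libraries is 0.1, no adjusted p was below 0.12, so none could pass. The log2 ratio of Dusp1 to Dusp16 went from -2.95 ± 0.260 to 0.42 ± 0.196 and that of Dusp10 to Dusp16 from -4.17 ± 0.679 to -1.61 ± 0.155 (SD, n = 3 per group), both without overlap (exact permutation p = 0.1, adjusted p = 0.12). The log2 ratio of Dusp4 to Dusp6 was 1.21, 0.97 and 0.16 in control and -1.17, -0.81 and -1.10 with doxycycline, so that Dusp4 had more counts than Dusp6 in every control library and fewer in every doxycycline library. The ratio of Dusp5 to Dusp6 was 0.97, 0.84 and 2.30 in control and 0.72, 0.56 and 0.56 with doxycycline, a difference of -0.76 that was -0.30 without control replicate 3. Spred1 to Spred2 went from 0.07 ± 0.140 to -0.43 ± 0.243, again with no overlap, at exact permutation p = 0.1. Spry2 to Spry4 was 1.84 ± 0.240 and 1.48 ± 0.107, with 1 doxycycline value inside the control range (exact permutation p = 0.2).

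**Figure D4:**
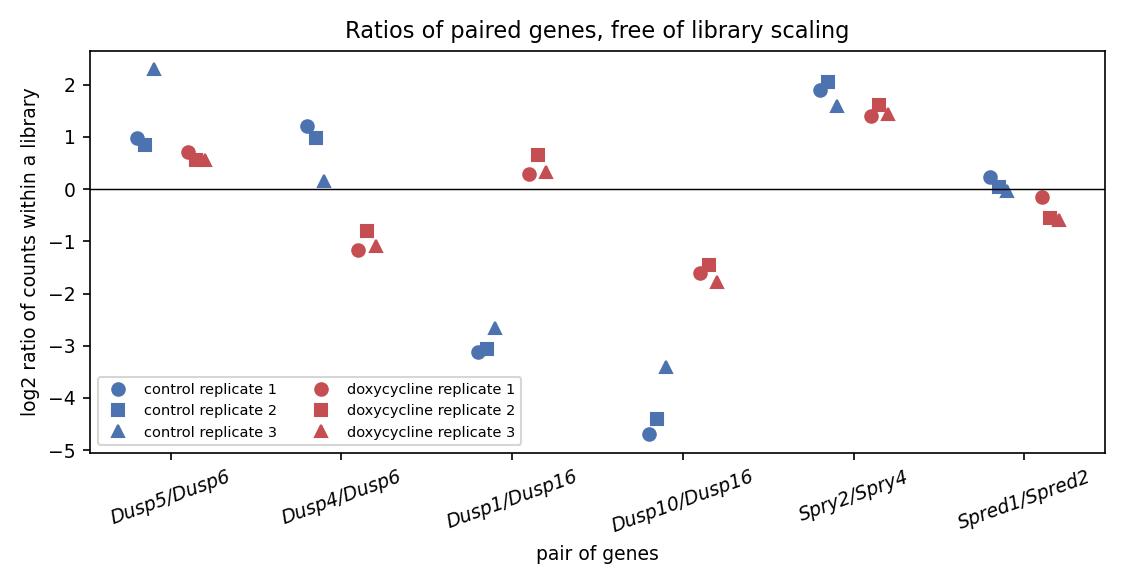
Log2 ratio of the counts of 2 genes in the same library for 6 pairs, with 3 control (blue) and 3 doxycycline (red) libraries. The groups are separate for every pair but Spry2/Spry4, and Dusp4/Dusp6 and Dusp1/Dusp16 change sign between the groups.

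Likeness of profile was measured over the 6 libraries as the root-mean-square distance between log2 CPM, each gene centred on its own mean. The genes most like Dusp5 were Agrn, Bcl2l1, Cish, Uap1l1 and Hs3st1, at distances of 0.0543 to 0.0733. Their log2 fold changes were 2.10 to 2.20, beside 2.16 for Dusp5. As Dusp5 varied little within groups, likeness here mainly means a similar difference between the groups, and shared regulation was not tested. Dusp5 was the gene of the list with the smallest adjusted p among those higher; none was lower.

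Genes around these inhibitors were read from fixed lists, beside 45.3% called of all genes. Of 9 other dual-specificity phosphatases tested, 4 rose and 1 fell (median log2 fold change 0.47). Dusp14, an atypical phosphatase, rose from 7.61 ± 0.756 to 87.0 ± 5.87 CPM (log2 fold change 3.52, edgeR adjusted p = 5.04e-05) and Dusp3, which acts on ERK and JNK, from 34.1 ± 3.78 to 170.5 ± 9.40 CPM (2.32, adjusted p = 1.18e-04). Dusp18 rose from 27.7 ± 7.74 to 63.6 ± 2.32 CPM (log2 fold change 1.20; 0.76 with total counts), and Dusp22, at low level, from 0.341 ± 0.166 to 2.36 ± 1.40 CPM. The member that fell, named after its value was seen, was Dusp28 (15.5 ± 3.43 to 9.06 ± 0.959 CPM), a call that was lost with any doxycycline library left out.

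Of 13 genes listed as other brakes on EGF receptor, Ras or ERK signalling, 3 rose and 3 fell (median log2 fold change 0.13). Whether each of them acts as a brake in these cells was not tested. Errfi1, an inhibitor of the EGF receptor kinase, rose from 87.1 ± 22.4 to 398.7 ± 24.7 CPM (log2 fold change 2.19, edgeR adjusted p = 5.33e-04) and Trib1, a pseudokinase gene, from 91.4 ± 30.7 to 248.9 ± 19.98 CPM. Lrig1, which promotes loss of ErbB receptors and marks crypt base cells, fell from 206.5 ± 64.3 to 55.7 ± 1.29 CPM (log2 fold change -1.89, adjusted p = 0.00153), and Lrig3 from 25.1 ± 2.45 to 12.6 ± 1.04 CPM. The remaining called genes, Dab2ip and Il17rd, were named after their values were seen. Dab2ip rose from 184.8 ± 59.7 to 430.9 ± 29.5 CPM (log2 fold change 1.22, edgeR adjusted p = 0.00982). Il17rd fell from 23.3 ± 9.93 to 4.35 ± 1.93 CPM (log2 fold change -2.41, edgeR adjusted p = 0.00681).

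Of 20 genes of the ERK cascade from receptor to kinase, 6 rose and 0 fell (median log2 fold change 0.42). At an unadjusted p under 0.05 the counts were 9 and 0, where the share of all genes was again not computed but is at least 45.3%. In the main fit 30% of the list was called, all higher, against 45.3% of all genes in either direction and 21.7% higher. The number that rose was 13 without control replicate 3, where 34.9% of all genes were higher, and 10 with DESeq2 (25.3% of all genes). It was 3 without control replicate 1 (18.8%), control replicate 2 (18%) or doxycycline replicate 1 (16.1%). It was 2 without doxycycline replicate 2 (14.9%) or 3 (14.8%). With total counts it was 2, with 2 lower, against 13.5% higher and 39.7% lower of all genes. Egfr rose from 41.4 ± 14.4 to 159.4 ± 8.16 CPM (log2 fold change 1.94, edgeR adjusted p = 0.00182) and the MEK gene Map2k1 from 98.0 ± 1.99 to 208.5 ± 8.30 CPM (1.09, adjusted p = 0.00107; 0.65 with total counts). Map2k2 (94.7 ± 17.3 to 156.9 ± 7.25 CPM) and the adaptor gene Shc1 (103.4 ± 1.84 to 151.0 ± 8.35 CPM) rose too, but lost their calls in 5 and 7 of the 13 alternatives, total counts among them (log2 fold changes of 0.29 and 0.11). All 5 tested EGF family ligands rose (median log2 fold change 2.30; 3 without doxycycline replicate 2 or 3): Hbegf from 15.5 ± 1.09 to 76.3 ± 5.88, Areg from 14.8 ± 2.36 to 78.2 ± 2.87, Ereg from 11.9 ± 6.12 to 87.1 ± 7.97 and Tgfa from 65.3 ± 30.9 to 187.3 ± 12.9 CPM, with the call of Tgfa among those lost.

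Of 10 other genes known to respond to ERK, 7 rose and 2 fell (median log2 fold change 1.16). The immediate early gene Fos rose from 17.3 ± 0.488 to 288.8 ± 13.1 CPM (log2 fold change 4.06, edgeR adjusted p = 3.15e-05), the ephrin receptor gene Epha2 from 33.8 ± 7.51 to 425.6 ± 16.4 CPM (3.65, adjusted p = 7.43e-05) and Ier3 from 14.3 ± 3.05 to 55.4 ± 2.29 CPM. The ETS factor gene Etv5 fell from 39.5 ± 2.35 to 10.2 ± 1.14 CPM (-1.96, adjusted p = 2.41e-04). Etv4, the other gene that fell, was named after its value was seen. It went from 54.1 ± 24.6 to 4.05 ± 1.14 CPM (log2 fold change -3.73, edgeR adjusted p = 5.49e-04). Genes commonly read as ERK output went both ways, with Dusp6 higher, Spry2 and Spry4 not passing the test, and Etv4 and Etv5 lower in the same libraries.

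Of 9 JNK and p38 kinases and their activating kinases, 5 rose and 1 fell (median log2 fold change 0.57). With total counts 2 were higher and 3 lower, against 13.5% higher and 39.7% lower of all genes. Without any 1 doxycycline library 2 were higher, beside 14.8% to 16.1% of all genes. Without control replicate 2 the number higher was 3, beside 18%. Without control replicate 3 it was 6, with 3 lower, against 34.9% higher and 35.1% lower of all genes. The p38 activator gene Map2k6 fell from 13.4 ± 1.68 to 1.97 ± 0.323 CPM (log2 fold change -2.76, edgeR adjusted p = 2.54e-04), while the JNK and p38 activator gene Map2k4 rose from 96.7 ± 20.8 to 197.9 ± 7.35 CPM (1.03; 0.59 with total counts). Mapk11, a p38 gene, rose from 2.48 ± 1.02 to 7.33 ± 1.83 CPM (call lost without doxycycline replicate 1, adjusted p = 0.0569) and the JNK gene Mapk8 from 47.0 ± 2.29 to 69.8 ± 3.38 CPM (call lost in 5 alternatives; 0.13 with total counts).

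**Figure D5:**
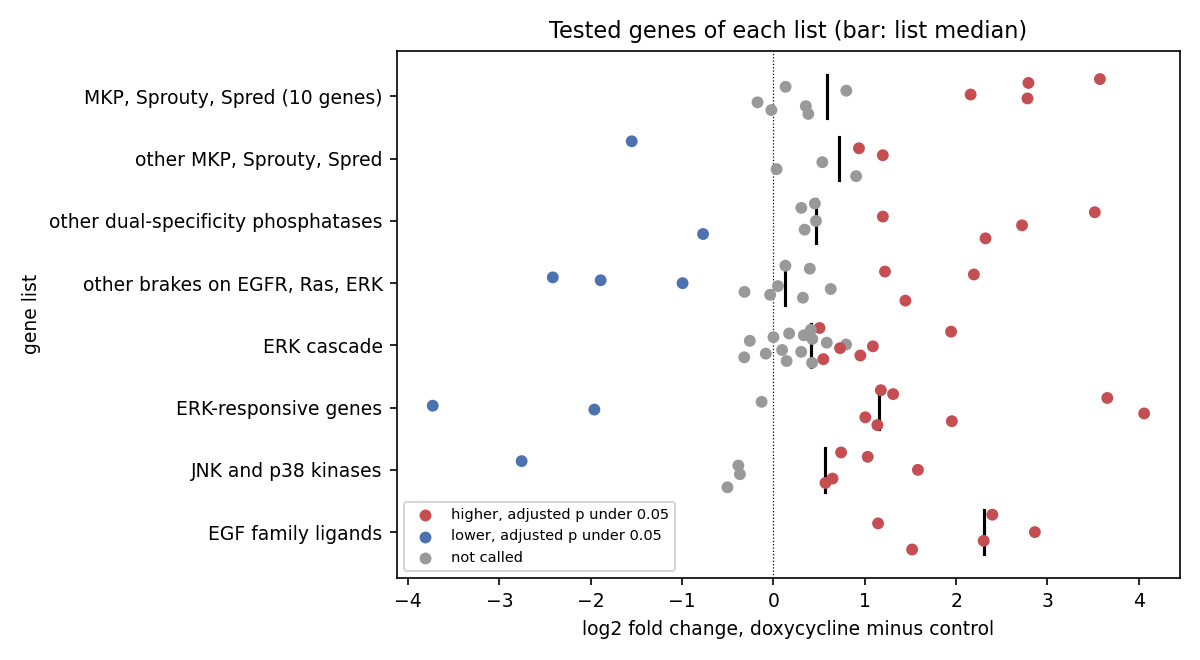
Log2 fold changes, doxycycline minus control, of the tested genes of each fixed list, coloured by call, with a bar at each list's median. In the top row the 4 phosphatase genes that rose lie apart from the other 6 genes, and the lists of brakes and ERK-responsive genes hold genes that rose and genes that fell.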

How the data were processed

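Gene expression was measured by RNA-seq (total RNA, TruSeq RNA kit, NextSeq, per the labels' protocols). The authors deposited whole-number read counts per Entrez gene ID for 6 libraries, with no normalization. Per the submitters' processing notes the genome was mm10. Aligner, counting tool, annotation and strand setting are not given in the sources used here; overlapping and antisense genes are therefore uncertain. Symbols, positions and promoters came from RefSeq's tables of GRCm38.p6 (24570 of 24594 IDs matched), and exon lengths from GENCODE of the same assembly. IDs without a symbol, which held 2.88 to 4.43% of the counts, stayed in the fit.

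The test was edgeR 4.0.16 under R 4.3.3: expression filter by group (12909 genes), TMM factors (1.16 to 1.17 in control, 0.843 to 0.879 in doxycycline libraries), robust quasi-likelihood F-test, and Benjamini-Hochberg adjustment over all genes with a threshold of 0.05. CPM use TMM-scaled library sizes, and the standard error is the log2 fold change divided by the root of F. Intervals use the moderated degrees of freedom. The fit was tested on data simulated with few changed genes, as many higher as lower, and no library set apart. These data differ in the share of genes called and in control replicate 3, so that test does not cover them. Ratios within a library used 0.5 added counts. Alternatives were RLE factors, total counts, no filter, 10 counts in 3 libraries, DESeq2 1.42.0, limma-voom (limma 3.58.1), a replicate block and each library left out. The genes and lists were chosen with earlier results of these data known. Named genes were the 10 of the report, the rest of their families and up to 4 called genes of smallest adjusted p per other list. Nf1, Dusp28, Dab2ip, Il17rd and Etv4 were named outside that rule.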

Additional observations from a re-analysis of the deposited data

How the results depend on the processing

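Of 130 fits of single genes of the report under alternatives, 114 kept their direction and side of the threshold, 0 lost a call, 3 gained one and 13 changed sign, all of the last for genes not called in the main fit. With total counts the log2 fold change was -0.31 for Dusp16, -0.060 for Spry4, -0.090 for Spred2 and -0.41 for Spry1. Spry2, at -0.02, was 0.0016 with RLE factors, 0.0019 with DESeq2, 0.025 with limma-voom, 0.045 with the replicate block, and -0.27 to 0.18 with single libraries left out. The same range was -0.43 to 0.0085 for Spred1, -0.14 to 0.35 for Dusp16 and -0.12 to 0.17 for Spry1. The cause was not tested. Among all genes, 1747 were higher and 5131 lower with total counts (25.4% of calls higher against 47.9%), and 1945 to 4632 higher and 1888 to 4654 lower with single libraries left out. Of the genes of the report 4 to 5 were higher and 0 to 2 lower when single libraries were left out. The other lists held 6, 9, 13, 20, 10, 9 and 5 tested genes. Of these together, 32 were higher and 8 lower, beside 21.7% higher and 23.6% lower of all genes. Under total counts 13 were lower, beside 39.7% of all genes. With single libraries left out 21 to 43 were higher and 7 to 11 lower, beside 14.8% to 34.9% and 14.3% to 35.1% of all genes. Of the ERK cascade 6 genes were higher in the main fit and 2 to 13 under the alternatives, and of the JNK and p38 list 5 and 2 to 6. The share of all genes higher was 21.7% in the main fit and 13.5% to 34.9% under the alternatives. Within 100 bases of the start, 0 of the 8 promoters of the report held the CRE or the E-box (1.15% and 3.17% of all promoters did). Deviations from the group means had correlations of -0.30, 0.12 and -0.19 for same-numbered libraries and -0.22 to 0.29 for differently numbered ones. With 3 libraries per group these correlations are tied to each other and cannot exclude a shared origin. The labels do not say whether the numbers mark one, and the fit without the block was kept. With the replicate block 2261 genes were higher and 2248 lower, 4 of the 10 genes were higher and 0 lower, 2 JNK and p38 genes were higher, and 0 other dual-specificity phosphatases were lower, so that the call of Dusp28 was lost. The lowest counts in control replicate 3, 42 for Dusp10 and 60 for Spry4, limit the precision in that library. The standard errors of these genes (0.192 and 0.236) were still smaller than those of Dusp4 (0.556) and Dusp6 (0.387).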
